A study of Mus musculus with 46 samples.

Results

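The comparison described here is of infarct with noninfarct tissue of the left ventricle in MRL mice 1 day after a coronary artery was tied off, on 8 of the 46 arrays of the study. Its members were chosen by their titles: 4 arrays are named as MRL infarct and 4 as MRL noninfarct at day 1, each called a biological replicate. The mice were males of the strain MRL/MpJ (MRL), 15 to 20 weeks old, operated under isoflurane with occlusion of the left coronary artery below the atrial appendage. After excision the ventricle was opened along the septum, a biopsy punch parted the infarct with its border from the remainder, and total RNA of each piece was hybridized to an Affymetrix MOE430A array, which reads each gene with 1 or more probe sets. For comparison, C57BL/6J (C57) males of the same ages and operation gave 4 and 4 arrays at day 1, MRL hearts without an operation gave 4 and 4 at day 0 (there "infarct" names the anterior-apical region that would be infarcted), and operated MRL hearts gave 4 and 4 at day 5. No sham-operated group enters, so the operation itself is shared by both regions of a heart. The infarct samples hold border tissue beside dead muscle, and the noninfarct samples hold all of the remaining ventricle.

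MRL/MpJ mice are known for closing ear wounds with little scar, and hearts of this strain have been compared with those of C57 mice for that reason. In the first day after coronary occlusion, starved heart muscle dies and releases signals that act on resident cells, which make cytokines and chemokines. Endothelium then displays adhesion molecules, and neutrophils followed by monocytes enter the dying zone. Muscle that survives at the border activates heat shock proteins, low-oxygen genes and genes of mechanical stress, while the collagen scar is laid down only later.

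Of 22626 probe sets that are not array controls, 13138 lay above the median of their array in at least 3 of the 46 arrays and were tested. They gave 7760 genes, each represented by its brightest tested probe set. Differences are means of log2 intensity in infarct minus noninfarct tissue, with the standard error (SE) of a limma fit over the 12 groups of all 46 arrays, and a gene was called when its Benjamini-Hochberg adjusted p was under 0.05. In MRL at day 1, 355 genes were higher in the infarct (4.57% of those tested) and 398 were lower (5.13%). More than 2-fold differences were reached by 217 of the higher and 136 of the lower genes. The arrays of the regions did not overlap in 209 of the higher and 254 of the lower genes, while 1225 of all genes tested (15.8%), called or not, had regions that did not overlap. The median difference over all genes tested was -0.02. The balance of the directions turned with the scaling: 47.1% of the calls were higher, against 53.7% after quantile normalization and 40.5% after centring each array on its median.

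In each strain 1 library of day 5 went against its label. On the third principal component of all 46 arrays, 1 library labelled as MRL infarct tissue of day 5 (replicate 3) had a value of -21.2 and 1 labelled as C57 noninfarct tissue of day 5 (also replicate 3) of 13.7, while all other MRL arrays lay between 11.3 and 29.8 and all other C57 arrays between -25.4 and 2.5. The former also had a summed atrial marker intensity of 2511, against 286 to 329 in the other MRL infarct arrays of that day. Neither is among the 8 arrays, but both enter the shared estimate of the spread, and so the SE and adjusted p of every gene in the main fit. Counts of called genes and some day 5 values are given with and without them. Single genes of the day 1 comparison and the overlap with C57 are given with them only.

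The count of 753 called genes rests on the spread shared by all groups and on single arrays. Other limma fits gave 1333 called genes without these day 5 libraries, 1376 on the arrays of days 0 and 1, and 206 on the 8 arrays alone. Same-numbered infarct and noninfarct arrays deviated together from their group means, and with the replicate number as a block the 8 arrays alone gave 1292 calls. Leaving out single arrays gave between 209 calls (without noninfarct replicate 1) and 1211 (without infarct replicate 1), with 232 without infarct replicate 2, 332 without infarct replicate 4, 337 without noninfarct replicate 4 and 469 without noninfarct replicate 3. Infarct replicate 3 lay at -62.2 on the second principal component of the 8 arrays and noninfarct replicate 3 at -27.4, against 5.2 to 27.4 for the other 6 arrays. Infarct replicate 3 also had the highest signal of the 3' over the 5' Gapdh control probe set, 0.38 on the log2 scale against -0.35 to -0.01 in the others, a sign of RNA quality whose part in the results was not tested. The same measure on the beta-actin control did not set this array apart, at 1.11 against 0.82 to 1.3 in the others. Without both arrays numbered 3 there were 410 calls. Leaving out infarct replicate 3 alone gave 726 and noninfarct replicate 2 gave 579. Calls and list counts lost in any of these fits below are to be read beside its count of all genes.

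Neutrophil markers had the highest median difference (2.53) of the 41 lists with tested members. That median covers only 7 of 21 listed markers, since 10 did not pass the filter on low values, so its rank is a description. S100a8, a subunit of the calcium-binding protein calprotectin of neutrophils, had log2 intensities of 9.03, 10.40, 10.38 and 10.06 in infarct replicates 1 to 4 and of 4.46, 4.64, 7.61 and 7.39 in noninfarct replicates 1 to 4. Every infarct array lay above every noninfarct array, and noninfarct replicates 3 and 4 lay above the other two. The difference was 3.94 ± 0.55 (SE, n = 4 and 4, limma adjusted p = 5.7e-05), or 15.3-fold. Its partner S100a9 had the same order of arrays, with 8.74 to 10.63 in infarct and 5.12 to 8.06 in noninfarct tissue, and a difference of 3.32 ± 0.49 (adjusted p = 0.00012). In unoperated MRL hearts S100a8 was at 3.31 ± 0.09 and 3.13 ± 0.22 (SD, n = 4) in the matching regions, so the noninfarct tissue at day 1 was itself above the level of unoperated hearts in each of its 4 arrays.

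Of 21 neutrophil markers listed, 4 were not found on the array by symbol, 10 did not pass the filter on low values and 7 were tested, of which 5 were higher and 0 lower, beside 4.57% of all genes higher. A gene that is near background elsewhere passes that filter through the group where it is high, so such counts and list medians are descriptions. The count of any list below is to be read beside the same shares of all genes, 4.57% higher and 5.13% lower. Besides the calprotectin genes, the called members were Clec4d (3.34 ± 0.75, a C-type lectin receptor of myeloid cells), Fpr2 (2.53 ± 0.47, a receptor for formylated peptides) and Il1r2 (1.32 ± 0.29, a decoy receptor for interleukin 1), with limma adjusted p of 0.006, 0.0017 and 0.0058. Without infarct replicate 3 the difference of Il1r2 was 0.76 (adjusted p = 0.02). Slfn4, a Schlafen gene of myeloid cells, was at 4.39, 5.17, 7.07 and 7.07 in infarct arrays and at 1.80, 1.76, 2.71 and 1.82 in noninfarct arrays. Its difference was 3.90 ± 0.54 (adjusted p = 4.5e-05), although its noninfarct mean lies below the median of every array. The summed intensity of the neutrophil markers ranged from 1648 to 3988 in infarct and from 457 to 1040 in noninfarct arrays. The size of a difference against a group near background depends on the scale. With 32 added to each intensity before log2, the difference was 1.47 for Slfn4, 2.11 for Clec4d, 1.01 for Fpr2 and 0.75 for Il1r2, and 34 of 109 called genes named here moved by over 1.5 times, with 4 calls ended. Since whole tissue was measured, more cells of a type and more RNA per cell cannot be told apart in any of these values.

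**Figure D1:**
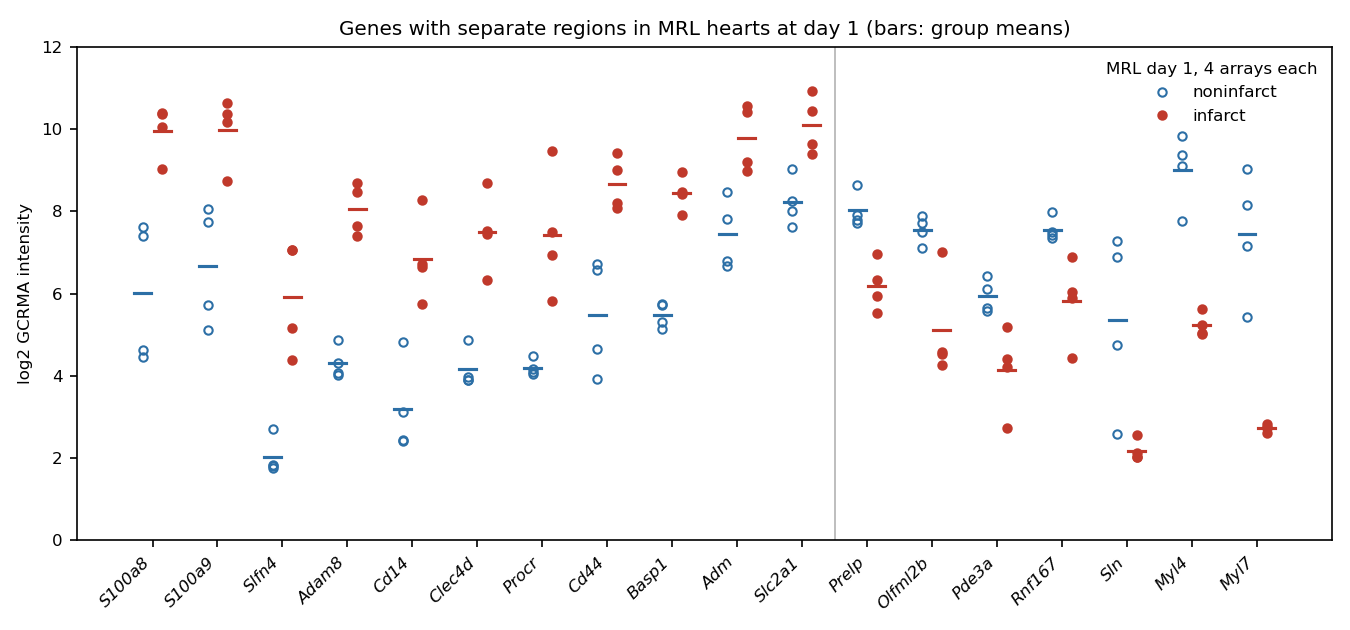
Log2 GCRMA intensity (vertical axis) of 18 genes in the 4 infarct (filled) and 4 noninfarct (open) arrays of MRL hearts at day 1, with bars at the group means. The 11 genes left of the line were higher in infarct tissue (S100a8 at 9.03 to 10.40 against 4.46 to 7.61) and the 7 right of it were lower (Myl7 at 2.61 to 2.84 against 5.44 to 9.02), with no overlap of the regions.

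Some monocyte and macrophage genes were higher as well. Of 25 such markers, 1 was not on the array by symbol and 24 were tested. Of these, 10 were higher and 0 lower, with a median difference of 1.54 and 23 above 0. Cd14, the co-receptor for bacterial lipopolysaccharide, had 5.76, 6.65, 8.27 and 6.72 in infarct and 2.42, 2.43, 4.82 and 3.12 in noninfarct arrays, with a difference of 3.65 ± 0.58 (limma adjusted p = 0.00021), or 1.82 with the offset of 32. Cd300lf, an inhibitory receptor of myeloid cells, was higher by 2.70 ± 0.67 (adjusted p = 0.012; 1.44 with the offset), with infarct replicate 1 the lowest of its group at 4.95. The proteoglycan of blood cell granules, Srgn, was at 11.29 to 12.20 in infarct and 9.96 to 10.64 in noninfarct tissue (1.64 ± 0.21, adjusted p = 1.4e-05).

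The calls of several macrophage genes rested on single arrays, while the neutrophil list kept 5 called members without any single one of the 8. The scavenger receptor Msr1 was at 8.04, 8.62, 6.53 and 7.52 in infarct and 4.85, 5.56, 4.15 and 4.83 in noninfarct arrays, a difference of 2.83 ± 0.82 (limma adjusted p = 0.027). Further tested probe sets of Msr1 gave 1.63 ± 0.58 and 0.38 ± 0.30 and were not called (limma adjusted p = 0.067 and 0.43). Lgals3, the galectin of activated macrophages, was higher by 2.80 ± 0.86 (adjusted p = 0.037), and Arg1, the arginase of wound macrophages, by 4.17 ± 1.15 (adjusted p = 0.021). Arg1 reached 8.82, 9.12 and 7.46 in infarct replicates 1, 2 and 4 but 3.67 in infarct replicate 3, below noninfarct replicate 4 at 5.29, so its regions overlapped. With the offset Arg1 differed by 2.38, and Lgals3 by 2.22 with no call. Without infarct replicate 2, the count of called macrophage markers was 1 (up to 12 without another array), in a fit that called 232 genes in all against 753. Arg1, Msr1 and Lgals3 stood at 3.56, 2.52 and 2.44 or more over all such leave-outs, with limma adjusted p up to 0.10, 0.11 and 0.14. Leaving out infarct replicate 4, noninfarct replicate 1 or noninfarct replicate 3 also ended the calls of all 3, noninfarct replicate 4 those of Msr1 and Lgals3, and noninfarct replicate 2 that of Lgals3. Summed macrophage marker intensities ranged from 3256 to 11148 in infarct and from 1756 to 2765 in noninfarct arrays.

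Platelet genes were among those higher. Ppbp, the platelet basic protein, was at 5.07, 7.42, 3.69 and 6.79 in infarct and 2.36, 2.31, 2.37 and 3.04 in noninfarct arrays, with a difference of 3.22 ± 0.56 (limma adjusted p = 0.00087). Its noninfarct mean lies below all array medians, and the difference was 1.35 with the offset of 32. Platelet factor 4, Pf4, was higher by 1.48 ± 0.39 (adjusted p = 0.017, but 0.11 without infarct replicate 2 and 0.063 without noninfarct replicate 3), and these were the called members among 4 tested erythroid and platelet markers. Of 16 T and NK cell markers only 2 passed the filter on low values, of 9 B cell markers 3 and of 6 mast cell markers 2. None of these was called by limma. The summed T and NK cell intensity was 37 to 48 in infarct and 39 to 43 in noninfarct arrays. The B cell sum was 567 in infarct replicate 1, 97 to 105 in the other infarct arrays and 68 to 134 in noninfarct arrays.

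Some adhesion molecules were higher. Of 10 adhesion molecules 9 were tested, 4 were higher and all 9 differences were above 0, with a median of 1.22. Cd44, the receptor for hyaluronan, was at 8.21, 9.41, 8.08 and 9.01 in infarct and 4.66, 6.71, 6.58 and 3.93 in noninfarct arrays (3.21 ± 0.57, limma adjusted p = 0.00097). A further tested probe set of Cd44 gave 1.86 ± 0.55. Selp, the P-selectin of activated endothelium and platelets, was higher by 2.93 ± 0.51 (adjusted p = 0.0008; 1.30 with the offset of 32), with noninfarct replicate 3 at 5.29 above infarct replicate 1 at 4.92. Plaur, the urokinase receptor, was higher by 2.08 ± 0.39 (adjusted p = 0.002). Procr, the endothelial receptor of protein C, was at 5.83, 6.95, 9.46 and 7.51 in infarct and at 4.04 to 4.48 in noninfarct arrays (3.24 ± 0.49, adjusted p = 0.00013; 2.10 with the offset).

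Of 17 endothelial identity genes, 16 were tested and 1 was higher, beside 4.57% of all genes. It was the tight junction gene Cldn5 (1.66 ± 0.44, limma adjusted p = 0.017). The call of Cldn5 ended without infarct replicate 3 or noninfarct replicate 1, with adjusted p up to 0.097 and differences down to 1.02. Pecam1, the general endothelial adhesion gene, was at 8.14 to 8.89 in infarct and 7.99 to 8.61 in noninfarct arrays, a difference of 0.27 ± 0.26 (adjusted p = 0.52).

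Chemokines and cytokines came next. Of 20 chemokines 15 were tested, 5 were higher and 0 lower (median 0.78). Of 31 cytokines, receptors and feedback genes 24 were tested, 11 were higher and 0 lower (median 0.90). The promoters of 4 of them are shown here because they hold letters of the NF-kB motif, a factor activated by inflammatory signals, as GGG, 2 free bases and TTTCC on either strand. Each sequence gives the 150 bases before the gene's start in RefSeq on build GRCm38.p6, 5′ to 3′ along the gene, with NF-kB letters, and in Ccl9 also AP-1 letters (TGANTCA), in capitals. Cxcl1 lies at chr5:90891095-90891244 (plus strand), Cxcl2 at chr5:90903749-90903898 (plus strand), Ccl9 at chr11:83578637-83578786 (minus strand) and Il6 at chr5:30012964-30013113 (plus strand).
Cxcl1: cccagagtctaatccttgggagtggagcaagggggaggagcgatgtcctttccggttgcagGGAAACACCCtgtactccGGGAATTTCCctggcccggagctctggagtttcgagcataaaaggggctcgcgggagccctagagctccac
Cxcl2: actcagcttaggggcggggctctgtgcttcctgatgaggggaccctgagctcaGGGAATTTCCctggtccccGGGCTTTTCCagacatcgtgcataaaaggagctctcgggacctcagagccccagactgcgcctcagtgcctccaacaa
Ccl9: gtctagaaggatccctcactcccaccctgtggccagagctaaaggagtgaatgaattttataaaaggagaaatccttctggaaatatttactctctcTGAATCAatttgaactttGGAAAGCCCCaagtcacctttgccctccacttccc
Il6: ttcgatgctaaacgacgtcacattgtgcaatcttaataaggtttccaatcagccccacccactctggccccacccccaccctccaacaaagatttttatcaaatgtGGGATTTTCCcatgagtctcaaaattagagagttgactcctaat

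Cxcl1 held 2 such stretches, beginning 89 and 71 bases before the start, Cxcl2 held 2, beginning 97 and 78 bases before it, Ccl9 had 1 at 35 bases and Il6 had 1 at 44 bases. A promoter (from 250 bases before to 50 after the start) was at hand for 6307 of the 7760 genes. NF-kB letters were in 1.6% of all of these, in 9 of 280 promoters of genes called higher (3.21%) and in 4 of 339 of genes called lower (1.18%). They were in 3 of 10 tested chemokines with a promoter at hand, and in 3 of the 4 of these that were called. AP-1 letters were in 5.15% of all promoters, 8.21% of the higher and 4.13% of the lower genes, and the cyclic AMP letters TGACGTCA in 3.28%, 6.07% and 4.13%. The CArG box of serum response genes was in 1.51%, 1.79% and 1.77%. A match of letters shows no binding, and these shares were not tested.

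In the levels of these genes the arrays numbered 3 stood out. Il6, the acute phase cytokine, was at 4.60, 4.76, 10.95 and 8.43 in infarct and 3.14, 3.24, 6.95 and 3.37 in noninfarct arrays. Within each number the infarct array was the higher, but noninfarct replicate 3 lay above infarct replicates 1 and 2. The difference of 3.01 ± 0.87 (limma adjusted p = 0.027) was 1.76 (adjusted p = 0.14) without infarct replicate 3, and the call also ended without infarct replicate 4 or noninfarct replicate 1, 2 or 4 (adjusted p from 0.068 to 0.10). The neutrophil chemokine Cxcl2 had the same order, with 4.01, 5.97, 11.12 and 9.21 against 2.78, 2.72, 7.39 and 4.47. It was higher by 3.24 ± 0.81 (adjusted p = 0.012), and by 2.06 without infarct replicate 3 (adjusted p = 0.065), with the call ended also without infarct replicate 4 or noninfarct replicate 1. Cxcl1 was higher by 2.68 (limma adjusted p = 0.027), and its call ended in 5 of the fits with 1 array left out. Ccl9 was higher by 1.36 (limma adjusted p = 0.019), and its call ended in 2 of them. Another tested probe set of Ccl9 gave 1.12 ± 0.47 and was not called (limma adjusted p = 0.12). Il1b, interleukin 1 beta, was higher by 3.11 ± 0.54 (adjusted p = 0.00087) and Ptgs2, the inducible cyclooxygenase, by 2.45 ± 0.56 (adjusted p = 0.0077), and both kept their calls without any single one of the 8 arrays. For Ptgs2 a further tested probe set gave 0.92 ± 0.39 and was not called (limma adjusted p = 0.12). With the offset of 32, Il6 differed by 1.96, Cxcl2 by 2.16, Ptgs2 by 1.58 and Il11, described next, by 0.77. Il11, a cytokine of the interleukin 6 family, was at 4.97 to 7.07 in infarct and 3.81 to 4.22 in noninfarct arrays (1.54 ± 0.31, adjusted p = 0.0028). Called members of the cytokine list fell to 4 without infarct replicate 3 or noninfarct replicate 4, and called chemokines to 0 without infarct replicate 4.

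Ch25h, the enzyme that makes 25-hydroxycholesterol in activated macrophages, followed the same order, at 5.08, 5.67, 8.43 and 6.33 in infarct and 2.75, 2.79, 4.76 and 2.77 in noninfarct arrays (3.11 ± 0.60, limma adjusted p = 0.0021; 1.52 with the offset of 32). Of 22 interferon-induced genes 17 were tested, 0 were called by limma and the median was 0.20. Of 9 complement genes tested 0 were called (median 0.10), and of 11 antigen presentation genes tested 1 was higher, beside 4.57% of all genes. It was the invariant chain Cd74 (1.58 ± 0.49, adjusted p = 0.039), whose call ended without infarct replicate 2 or 4 or noninfarct replicate 2, 3 or 4 (adjusted p from 0.058 to 0.17).

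Immediate early genes, which answer stimuli within minutes, were higher in 10 of 19 tested and lower in 0, with a median of 1.03. Myc, a growth-promoting transcription factor, was at 7.58, 8.20, 9.64 and 8.01 in infarct and 4.59, 4.93, 7.50 and 5.08 in noninfarct arrays (2.83 ± 0.54, limma adjusted p = 0.0021). The regions of Myc did not overlap, though noninfarct replicate 3 at 7.50 lay just under the lowest infarct array. Fosl1, a subunit of the AP-1 factor, was at 2.34, 5.10, 7.95 and 5.50 in infarct and 1.98, 1.95, 3.78 and 2.01 in noninfarct arrays (2.79 ± 0.58, adjusted p = 0.004; 1.16 with the offset of 32). Its infarct replicate 1 lay below noninfarct replicate 3, so the regions overlapped. Ier3, an early gene tied to cell survival, was higher by 1.49 ± 0.33 (adjusted p = 0.006). The immediate early list held 3 called members without noninfarct replicate 1 and 7 without both arrays numbered 3. Its median within same-numbered arrays was 0.51, 0.62, 1.97 and 0.71 for numbers 1 to 4. Gadd45g, a growth arrest gene of another list, was higher by 2.26 ± 0.52 (limma adjusted p = 0.0076). In that list, of cell cycle inhibitors and p53 targets, 2 of 16 tested were higher and 0 lower, with a median of 0.09.

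Heat shock proteins, which refold damaged proteins, were higher in 7 of 15 tested members (17 listed) and lower in 0, with a median of 0.71 that varied little among same-numbered arrays (0.59, 0.79, 0.69 and 0.74). The inducible Hspa1a was at 5.26, 7.61, 11.97 and 9.60 in infarct and 2.24, 3.92, 8.27 and 4.10 in noninfarct arrays, a difference of 3.98 ± 0.95 (limma adjusted p = 0.0096). Each infarct array lay above its same-numbered noninfarct array, but the infarct arrays themselves spread from 5.26 to 11.97 and overlapped with noninfarct replicate 3. Without noninfarct replicate 1 the difference was 3.18 and the call ended (adjusted p = 0.062). Its neighbour Hspa1b, a near-identical copy whose probes may read both genes, was higher by 3.02 ± 0.65 (adjusted p = 0.0049). Hsp90aa1, the inducible form of the chaperone HSP90, was at 11.41 to 12.28 in infarct and 10.21 to 11.15 in noninfarct arrays (1.32 ± 0.25, adjusted p = 0.0017), and Hspb1, the small heat shock protein of muscle, was higher by 1.06 ± 0.22 (adjusted p = 0.0035). None of the 6 called members with a promoter at hand held the heat shock letters there (GAA, TTC and GAA, each 2 free bases apart), which were in 3 of 13 tested members and in 0.476% of all promoters. Called members fell to 3 without noninfarct replicate 1.

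Genes of the endoplasmic reticulum stress response were higher in 4 of 16 tested (median 0.47). They were Hspa5, the chaperone BiP (0.74 ± 0.22, limma adjusted p = 0.033), the transcription factors Xbp1 (0.72 ± 0.23, 0.041) and Atf4 (0.71 ± 0.22, 0.035), and Trib3, a kinase-like gene (0.85 ± 0.26, 0.034). Without infarct replicate 2, infarct replicate 4, noninfarct replicate 1 or both arrays numbered 3 none of the 4 was called, and Trib3 had an adjusted p of 0.052 on the 8 arrays with the replicate number as a block and of 0.057 with the offset (0.35). Other tested probe sets of Atf4 gave 1.55 ± 0.36 (adjusted p = 0.0083) and 0.27 ± 0.20, and those of Xbp1 0.16 to 0.88. Of 19 tested metallothionein, iron and redox genes 3 were higher, led by Srxn1, sulfiredoxin (1.56 ± 0.38, adjusted p = 0.011, and 0.058 without noninfarct replicate 1), and Txnrd1, thioredoxin reductase (1.24 ± 0.26, adjusted p = 0.004).

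Some genes known to be induced by low oxygen were higher, among them members of the hypoxia and glucose lists. The promoters of 3 of these are shown because they hold ACGTGC, the core letters bound by hypoxia-inducible factors, which are in capitals (on the other strand in Ero1a, as GCACGT). The sequences are again the 150 bases before the RefSeq start on GRCm38.p6, at chr4:119108595-119108744 (plus strand) for Slc2a1, chr11:120948917-120949066 (plus strand) for Slc16a3 and chr14:45318573-45318722 (minus strand) for Ero1a.
Slc2a1: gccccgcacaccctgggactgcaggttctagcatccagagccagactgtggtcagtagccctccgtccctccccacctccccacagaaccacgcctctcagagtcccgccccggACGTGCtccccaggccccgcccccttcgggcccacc
Slc16a3: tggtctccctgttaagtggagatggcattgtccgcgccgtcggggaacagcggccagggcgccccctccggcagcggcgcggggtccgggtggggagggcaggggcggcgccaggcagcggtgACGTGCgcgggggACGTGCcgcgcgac
Ero1a: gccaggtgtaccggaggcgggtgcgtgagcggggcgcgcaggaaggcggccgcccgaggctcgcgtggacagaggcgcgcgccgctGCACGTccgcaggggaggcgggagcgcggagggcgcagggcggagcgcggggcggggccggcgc

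These letters began 36 bases before the start in Slc2a1, at 27 and 14 bases in Slc16a3 and at 64 bases in Ero1a. They were in 8.29% of all promoters, 10.7% of those of genes called higher and 5.01% of those of genes called lower, and in 5 of 8 tested members of the hypoxia list. Slc2a1, the glucose transporter GLUT1, was at 9.39, 9.65, 10.92 and 10.45 in infarct and 7.61, 8.26, 9.04 and 8.01 in noninfarct arrays (1.87 ± 0.35, limma adjusted p = 0.0017). Slc16a3, the lactate exporter MCT4, was at 6.80, 6.27, 8.03 and 8.05 in infarct and 4.42, 4.97, 5.33 and 5.16 in noninfarct arrays (2.32 ± 0.45, adjusted p = 0.0023). Ero1a, an oxidase of the endoplasmic reticulum, was higher by 1.64 ± 0.32 (adjusted p = 0.0023). In all 3 the regions were apart, with infarct replicates 3 and 4 the highest.

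Adm, the vessel-relaxing peptide adrenomedullin, was at 8.98, 9.20, 10.42 and 10.56 in infarct and 6.68, 6.79, 8.48 and 7.82 in noninfarct arrays (2.35 ± 0.36, limma adjusted p = 0.00015). Of 10 tested hypoxia genes 5 were higher and 0 lower (median 0.81), and 3 of them were called without both arrays numbered 3. The count was also 3 without infarct replicate 3 or 4 or noninfarct replicate 1, 2 or 4. The glycolysis list had no common direction: of 19 tested genes of glucose transport and glycolysis, 2 were higher (the transporters above), 0 were lower and 9 lay above 0, with a median of -0.07.

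**Figure D2:**
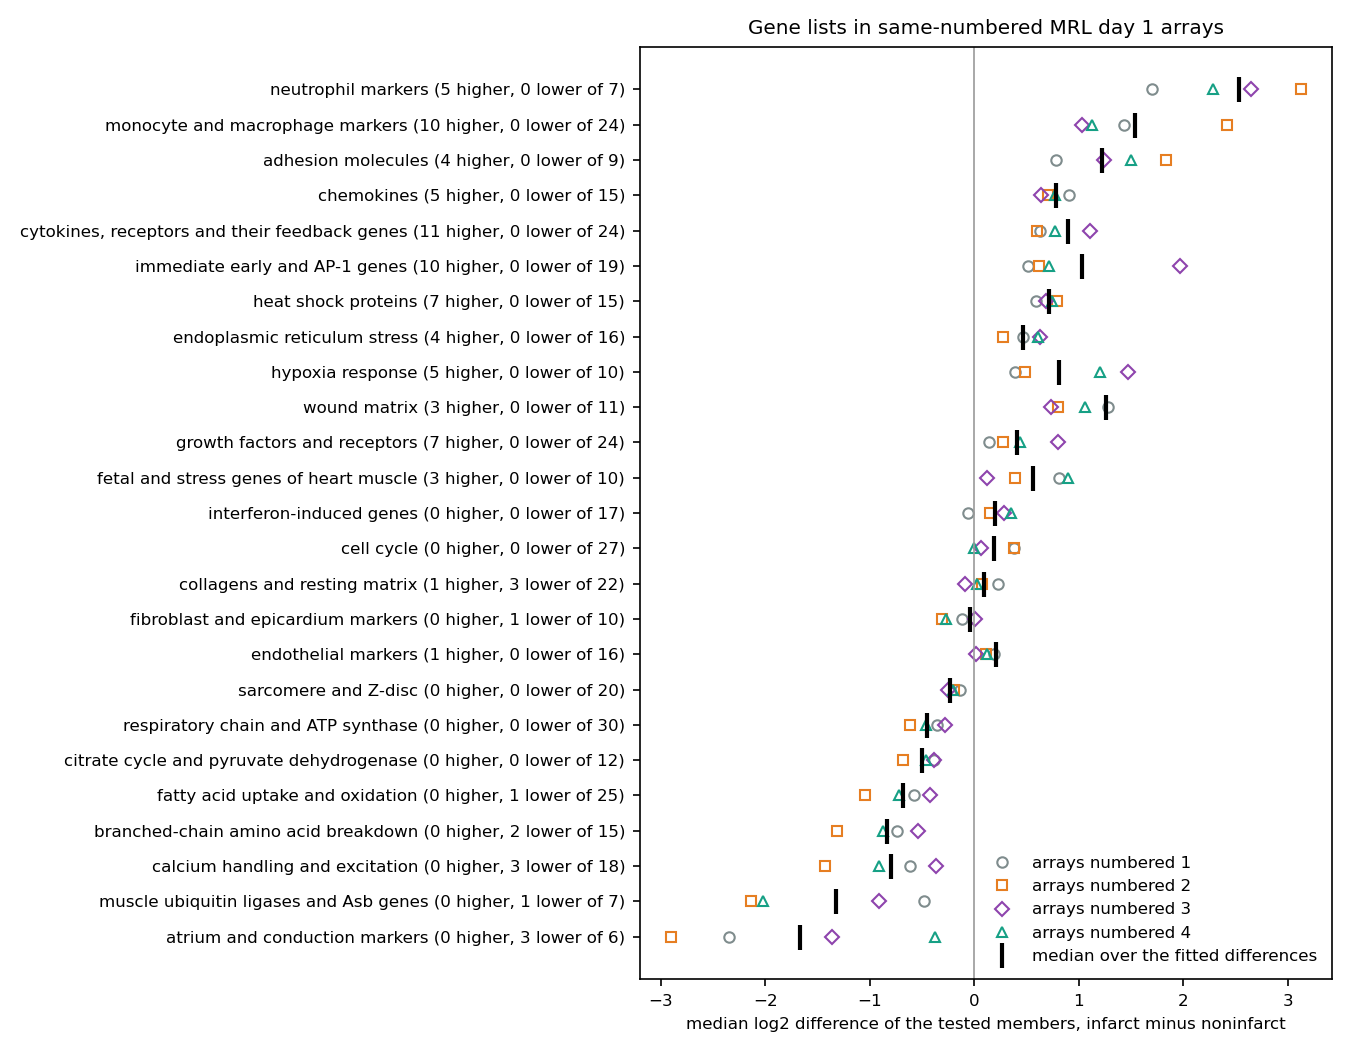
Median log2 difference, infarct minus noninfarct (horizontal axis), of the tested members of 25 gene lists, for each of the 4 numbers that infarct and noninfarct arrays share (symbols) and over the fitted differences (black bars). The counts beside each name are the members called higher and lower of those tested. Neutrophil markers have the highest median (2.53, over the 7 of 21 listed that were tested) and atrial markers the lowest (-1.67), and arrays numbered 3 lie apart in immediate early genes (1.97).

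Some genes of the provisional wound matrix were higher, and some of the resting matrix were lower. Of 11 tested wound matrix genes (15 listed) 3 were higher and 0 lower, with a median of 1.26. Tnc, the matrix protein tenascin C of remodelling tissue, was at 9.65, 9.92, 8.40 and 10.10 in infarct and 6.37, 8.21, 6.91 and 6.60 in noninfarct arrays (2.50 ± 0.70, limma adjusted p = 0.023). The call of Tnc ended without infarct replicate 2 or 4 or noninfarct replicate 1 or 4 (adjusted p from 0.064 to 0.084), and that of the matricellular gene Ccn1 (1.52 ± 0.38, adjusted p = 0.012) without noninfarct replicate 1 (0.062). In that fit no wound matrix gene was called. Of 22 tested collagens and resting matrix genes 1 was higher and 3 were lower, with a median of 0.09, and Col1a1, the main collagen of scars, was at 8.85 to 10.99 and 8.51 to 10.27 (0.32 ± 0.47, adjusted p = 0.71). The lower ones were Lama2 (-1.05 ± 0.24), Fbln5 (-1.16 ± 0.34) and Ogn (-1.32 ± 0.40), which make a laminin chain of the muscle basement membrane, a fibulin and a small leucine-rich proteoglycan. None of these was called without infarct replicate 2, and Ogn had an adjusted p of 0.11 on the 8 arrays with the replicate number as a block.

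Among proteases and inhibitors, 2 of 19 tested were higher and 1 was lower, beside 4.57% and 5.13% of all genes. Adam8, a membrane protease of leukocytes, was at 7.40, 8.48, 8.69 and 7.65 in infarct and 4.03, 4.31, 4.88 and 4.06 in noninfarct arrays (3.73 ± 0.82, limma adjusted p = 0.0056). Adamts4, which cuts proteoglycans, was higher by 3.01 ± 0.52 (adjusted p = 0.0008). The inhibitor Timp1 was at 10.67, 11.03, 8.77 and 11.38 in infarct and 8.33, 9.52, 8.40 and 8.82 in noninfarct arrays, a difference of 1.70 ± 0.61 that was not called (adjusted p = 0.07). Infarct replicate 3 was the low array, and without it Timp1 differed by 2.26 (adjusted p = 0.022). With the replicate number as a block on the 8 arrays Timp1 was called too (adjusted p = 0.025).

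Growth factors and receptors were higher in 7 of 24 tested, with 0 lower and a median of 0.41. Inhbb, a chain of activin, was at 6.80, 8.21, 9.35 and 8.50 in infarct and 3.46, 5.40, 7.18 and 4.38 in noninfarct arrays (3.11 ± 0.67, limma adjusted p = 0.0048). Ereg, the growth factor epiregulin, was at 4.52, 4.96, 7.21 and 5.49 against 3.82 to 4.04 (1.64 ± 0.27, adjusted p = 0.00051), and at 1.09 without infarct replicate 3 and 0.83 with the offset of 32. Basp1, a membrane protein known from growing nerve endings, was at 7.91 to 8.97 in infarct and 5.13 to 5.75 in noninfarct arrays (2.97 ± 0.67, adjusted p = 0.0068). Without noninfarct replicate 1, 2 growth factor genes were called.

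Genes of the dividing cell gave no difference that passed the test: of 27 tested cell cycle genes 0 were called, 23 lay above 0 and the median was 0.19. Mki67, a marker of dividing cells, was at 5.61 in infarct replicate 1 and at 3.28 to 3.57 in the other 7 arrays. The cell cycle inhibitor Cdkn1a was at 8.23, 9.34, 10.97 and 9.89 in infarct and 7.08, 8.27, 10.28 and 8.45 in noninfarct arrays. Its difference of 1.09 ± 0.47 was not called by limma (adjusted p = 0.13), but with the replicate number as a block it was (0.034 on all 46 arrays, 0.013 on the 8 alone), as it was without infarct replicate 1 (0.027) or noninfarct replicate 3 (0.023).

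The largest negative differences without overlap were those of atrial genes. Myl7, the atrial regulatory light chain of myosin, was at 2.61, 2.72, 2.75 and 2.84 in infarct and 8.16, 9.02, 7.15 and 5.44 in noninfarct arrays. The infarct arrays lay together near background and the noninfarct arrays were spread, replicate 4 being the lowest. The difference was -4.71 ± 0.98 (limma adjusted p = 0.004), or -2.50 with the offset of 32. Myl4, the atrial essential light chain, was at 5.02 to 5.62 against 7.76 to 9.83 (-3.79 ± 0.85, adjusted p = 0.0062), while another tested probe set of it, near background, showed a difference of 0.00. Sln, sarcolipin, which restrains the calcium pump of atrial muscle, differed by -3.19 ± 0.90 (adjusted p = 0.024), with 2.02 to 2.56 against 2.58 to 7.27, or -1.28 with the offset.

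The same genes differed between the regions of unoperated MRL hearts, by -5.70 ± 0.98 for Myl7, -4.33 ± 0.85 for Myl4 and -4.46 ± 0.90 for Sln (limma adjusted p = 0.0073, 0.044 and 0.048). They were 3 of the 4 genes called there (0.0515% of those tested), and 3 of 6 tested atrium and conduction markers on each of these days. The change of this difference from day 0 to day 1 was not called for any of them (0.99 ± 1.39, 0.54 ± 1.20 and 1.28 ± 1.27, adjusted p = 0.82, 0.90 and 0.71). Summed atrial marker intensities were 384 to 1790 in noninfarct and 165 to 405 in infarct arrays at day 1. Sln lost its call without infarct replicate 2 or 4 or noninfarct replicate 1 or 2 (adjusted p from 0.055 to 0.10).

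Apart from atrial genes, the genes that were lower in every infarct array included genes of matrix, signalling and muscle. Prelp, a proteoglycan that anchors collagen to basement membranes, was at 6.96, 5.53, 5.94 and 6.33 in infarct and 8.65, 7.92, 7.72 and 7.80 in noninfarct arrays (-1.83 ± 0.28, limma adjusted p = 0.00013). Olfml2b, a secreted olfactomedin-like matrix protein, was at 7.02, 4.54, 4.59 and 4.27 against 7.11 to 7.89 (-2.45 ± 0.46, adjusted p = 0.0018), with infarct replicate 1 almost at the noninfarct level. Pde3a, a phosphodiesterase of heart muscle that breaks down cyclic AMP, was at 5.18, 4.41, 4.22 and 2.73 against 5.58 to 6.44 (-1.81 ± 0.36, adjusted p = 0.0028). Rnf167, a ubiquitin ligase, differed by -1.75 ± 0.34 (adjusted p = 0.0023), and Map3k5, the stress kinase ASK1, by -1.72 ± 0.36 (adjusted p = 0.0041). Of the 15 largest negative differences without overlap, Slc25a42, Plaat1, Asb15, Smim27, Dnajc28, Oplah and Lpin1 make up the rest beside the atrial genes, with Plaat1 at -1.98 and Lpin1 at -1.63. With the offset of 32 the values were -1.63 for Olfml2b, -0.87 for Pde3a, -0.84 for Map3k5, -1.10 for Plaat1, -0.79 for Asb15, -0.62 for Smim27 and -0.84 for Dnajc28. Without infarct replicate 2 the calls of Slc25a42, Plaat1, Asb15, Dnajc28, Oplah and Lpin1 ended (adjusted p from 0.06 to 0.23). Noninfarct replicate 1 also decided those of Slc25a42, Plaat1, Asb15, Dnajc28 and Lpin1, infarct replicate 4 those of Slc25a42, Plaat1, Dnajc28 and Lpin1, and the call of Dnajc28 ended without any array but infarct replicate 1.

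Lists of heart muscle function had negative medians with few single calls. Of 18 tested genes of calcium handling and excitation, 0 lay above 0, the median was -0.80 and 3 were lower, beside 5.13% of all genes. Cacnb2, a subunit of the calcium channel, was at 6.14, 4.56, 2.67 and 3.47 in infarct and 7.02, 7.52, 5.98 and 6.80 in noninfarct arrays (-2.62 ± 0.65, limma adjusted p = 0.011). The others were the potassium channel Kcnh2 (-2.09 ± 0.66, adjusted p = 0.041) and the sodium-calcium exchanger Slc8a1 (-1.59 ± 0.42, adjusted p = 0.017), both of which lost their calls without infarct replicate 2 or noninfarct replicate 1, Kcnh2 also without infarct replicate 4 or noninfarct replicate 3 or 4 and Slc8a1 without noninfarct replicate 2. With the offset Cacnb2 differed by -1.42 and Kcnh2 by -1.27. Another tested probe set of Slc8a1, near background, showed 0.04. Atp2a2, the calcium pump, was at 14.22 to 14.44 and 14.16 to 14.55 (-0.03 ± 0.20, adjusted p = 0.95).

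Energy metabolism lists had negative medians too. All 30 tested genes of the respiratory chain and ATP synthase lay below 0, with a median of -0.45 and none called. The 12 tested citrate cycle genes had a median of -0.50 with none called. Of 25 tested genes of fatty acid uptake and oxidation 1 was lower, beside 5.13% of all genes, and the median was -0.68. It was the short-chain dehydrogenase Acads (-1.15 ± 0.30, limma adjusted p = 0.015). Of 15 tested genes of branched-chain amino acid breakdown none lay above 0, the median was -0.84 and 2 were lower, Bcat2 (-1.53 ± 0.41, adjusted p = 0.017) and Mmut (-0.96 ± 0.28, adjusted p = 0.027). All 3 calls ended without infarct replicate 2, at adjusted p of 0.09 for Acads and for Bcat2 and 0.15 for Mmut, as did that of Bcat2 without noninfarct replicate 4 and that of Mmut without infarct replicate 4 or noninfarct replicate 1, 3 or 4. With the offset Bcat2 differed by -0.94. Further tested probe sets of Mmut gave -0.51 and 0.31. On the 8 arrays with the replicate number as a block, 10 of 30 respiratory chain genes and 4 of 12 citrate cycle genes were called. So were 16 of 25 fatty acid genes and 10 of 15 branched-chain genes, beside 1292 of all 7760 genes. Without the day 5 libraries that stand apart the counts were 6, 1, 10 and 10. In that fit 1333 of all 7760 genes were called, 809 of them lower.

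Of 20 tested sarcomere genes 0 were called by limma, with a median of -0.23, and Myh6, the main myosin heavy chain of the adult mouse heart, was at 15.14 to 15.50 in infarct and 15.23 to 15.43 in noninfarct arrays (-0.05 ± 0.28, limma adjusted p = 0.94), with a log2 difference of 0.09, of the other sign, after quantile normalization. Of 10 tested fetal and stress genes 3 were higher: Ankrd2, a stretch response gene (1.80 ± 0.52, adjusted p = 0.027), Flnc, the muscle filamin (1.31 ± 0.30, 0.0076), and Xirp1, a protein of intercalated discs (1.01 ± 0.32, 0.04). Ankrd2 and Xirp1 lost their calls without infarct replicate 2 or 4 or noninfarct replicate 1 or 4, and Xirp1 also without infarct replicate 3 or noninfarct replicate 2 (adjusted p from 0.061 to 0.19). The natriuretic peptides did not pass the test, with 0.22 ± 0.47 for Nppa (adjusted p = 0.81) and 0.57 ± 0.39 for Nppb (0.36). Nppa was at 12.37 in infarct replicate 3, and both arrays numbered 3 were the lowest of their region.

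Genes of other supporting cells showed single calls in short lists, beside 5.13% of all genes called lower. Of 10 tested fibroblast and epicardium markers 1 was lower, the matrix gene Dpt (-0.93 ± 0.30, limma adjusted p = 0.042, but 0.051 on the 8 arrays with the replicate block), and the summed intensity of the list was 3740 to 7304 in infarct and 7088 to 9764 in noninfarct arrays. Of 11 tested smooth muscle and pericyte markers 1 was lower, the smooth muscle myosin Myh11 (-0.94 ± 0.31, adjusted p = 0.047, and 0.067 with that block). Both calls ended without infarct replicate 2 or 4 or noninfarct replicate 1 or 3, Dpt's also without noninfarct replicate 2 and Myh11's without infarct replicate 1 or noninfarct replicate 4. Of 6 tested secreted Wnt antagonists 1 was lower, Dkk3 (-1.21 ± 0.31, adjusted p = 0.016, and 0.11 without noninfarct replicate 1, with a difference of -0.60 with the offset). Clock genes were called in 0 of 13 and nerve and Schwann cell markers in 0 of 2.

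The 4 hearts, as far as shared numbers mark hearts, differed in which of these groups stood out. The macrophage list had its highest median in arrays numbered 2 (2.42, against 1.43, 1.03 and 1.13 for numbers 1, 3 and 4), while the immediate early list had it in arrays numbered 3. Arrays numbered 3 held the highest Hspa1a, Il6, Cxcl2 and Fosl1 of both regions and the lowest infarct Arg1, Msr1, Lgals3 and Ppbp. Some muscle lists had their lowest median in arrays numbered 2, with -1.43 for calcium handling, -1.05 for fatty acid oxidation and -2.14 for muscle ubiquitin ligases and Asb genes, against -0.37, -0.42 and -0.91 in arrays numbered 3. The sarcomere list (-0.25) and the fetal and stress list (0.12) had theirs in arrays numbered 3, against -0.20 to -0.14 and 0.39 to 0.90 in the others. All 4 same-numbered pairs had the called sign in 347 of 355 higher genes and in 383 of 398 lower genes. Since these genes were called on the same arrays, such agreement is largely built in and is no separate support.

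**Figure D3:**
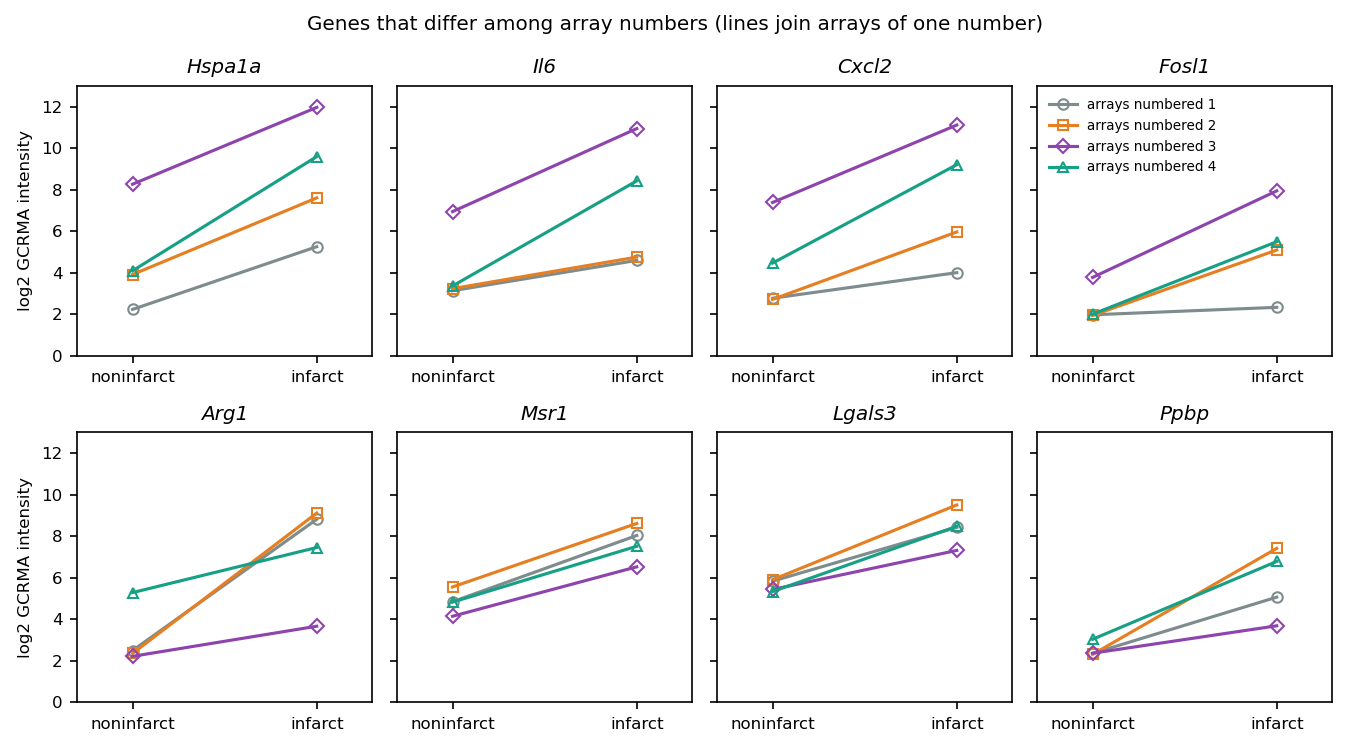
Log2 GCRMA intensity (vertical axis) of 8 genes in noninfarct and infarct arrays of MRL hearts at day 1, with a line joining the arrays of each number. The genes were chosen after their values were seen: in the upper row arrays numbered 3 are the highest in both regions (Il6 at 6.95 and 10.95), and in the lower row infarct replicate 3 is the lowest infarct array (Arg1 at 3.67).

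C57 hearts at day 1 had 318 genes higher in infarct than in noninfarct tissue (4.1% of those tested) and 268 lower (3.45%). In both strains 193 genes were called higher, which is 54.4% of the MRL and 60.7% of the C57 genes, and 123 lower (30.9% and 45.9%), and 0 genes were called in opposite directions. The difference between the strains' region differences was called for 0 genes by limma on all 46 arrays (0%). An unadjusted p under 0.05 was reached by 106 genes (1.37% of those tested). That is fewer than this threshold would give if no gene differed. The S100a8 differences were 3.94 ± 0.55 in MRL and 3.70 ± 0.55 in C57. Procr (3.24 in MRL, 1.74 in C57) and Cd44 (3.21 and 1.88) had the larger values in MRL, and Cxcl2 (3.24 and 5.78), Hspa1a (3.98 and 5.37) and Il1r2 (1.32 and 3.15) in C57, each with a limma adjusted p of 0.70 or 1 for the difference between strains.

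With the replicate number of MRL day 1 as a block on all 46 arrays, 3 genes differed between the strains: Il1r2 by -1.83 ± 0.29 (limma adjusted p = 0.004), the protease inhibitor Serpina1b by -2.26 ± 0.40 (0.016) and Cxcl2 by -2.54 ± 0.49 (0.038), with the lower value in MRL. Without both arrays numbered 3 there were also 3, Il1r2 (-2.24 ± 0.28, 2.1e-05), the chemokine Cxcl5 (-3.01 ± 0.39, 2.3e-05) and Wfdc21 (-1.22 ± 0.22, 0.013). Without the day 5 libraries that go against their labels 1 gene was called, Ifi202b, an interferon-inducible gene (1.76 ± 0.30, 0.015), and on days 0 and 1 alone 1, Ctla2b (-2.15 ± 0.35, 0.025). These genes were named after their values were seen. The block of the first fit was set for the MRL day 1 arrays only and left those of C57 without one. The arrays of both strains at day 1 alone gave 0 genes, with or without a replicate block. So did fits with no filter on low values, a stricter filter, the offset of 32, quantile normalization, median centring and eBayes with trend.

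**Figure D4:**
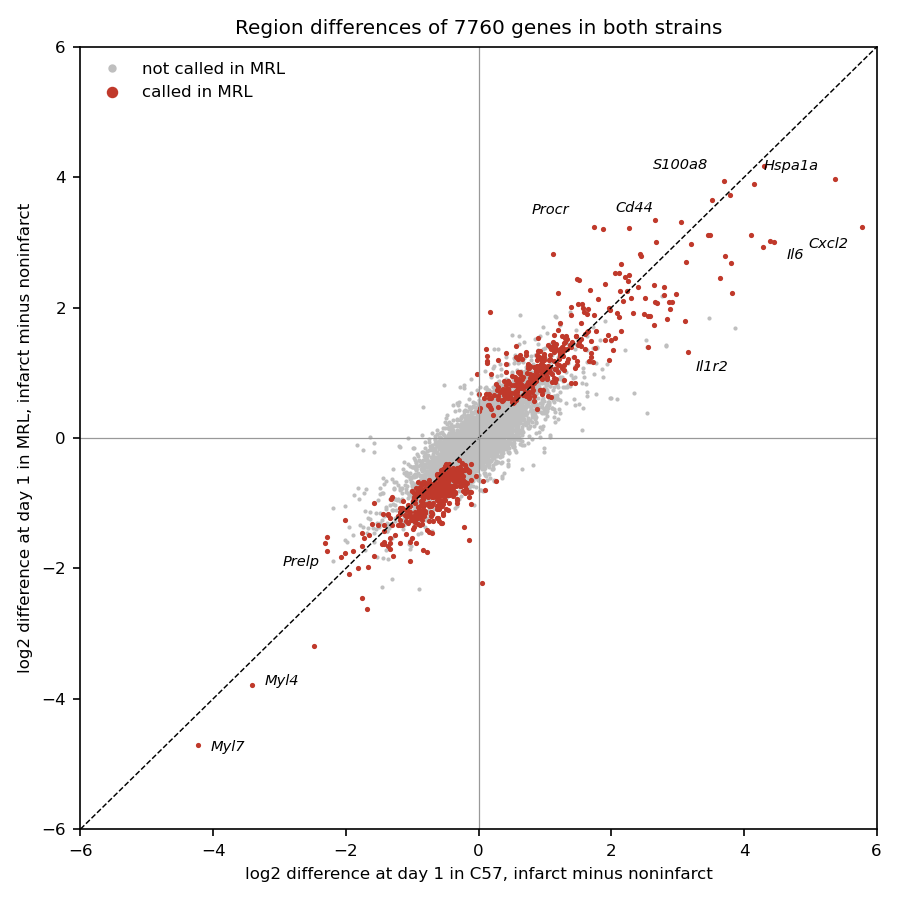
Log2 difference, infarct minus noninfarct at day 1, of 7760 genes in C57 (horizontal axis) and MRL (vertical axis), with genes called in MRL in red and a dashed line of equal differences. Most called genes lie on the same side of 0 in both strains, with S100a8 near the line (3.94 and 3.70) and Cxcl2 below it (3.24 and 5.78).

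Beside day 0, the region difference at day 1 was called as changed for 6 genes (0.0773% of those tested) with limma on all 46 arrays. They were S100a8 (3.75 ± 0.78), S100a9 (3.34 ± 0.69), Slfn4 (3.89 ± 0.76), Procr (3.26 ± 0.69), Srgn (1.61 ± 0.30) and the transporter Slc22a23 (-1.34 ± 0.27), with limma adjusted p from 0.033 to 0.045. The regions of unoperated hearts differed by 0.18 or less in the 5 that were higher, and Slc22a23 was the one gene higher in the infarct region at day 0 (1.18 ± 0.19), with both day 1 means below the median of every array. This test uses the spread of the day 5 groups too: without those day 5 libraries it gave 18 genes, with the replicate block 42, on the arrays of days 0 and 1 26, and on the 16 arrays concerned alone 211. Without infarct replicate 2 or 4 or noninfarct replicate 1 or 2 it gave 0 and without infarct replicate 3 it gave 2, while it gave 19 without noninfarct replicate 3 and 129 without infarct replicate 1.

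At day 5 the MRL regions had 414 genes higher in infarct tissue (5.34% of those tested) and 796 lower (10.3%), or 1421 and 1488 without the day 5 libraries that go against their labels. The genes called at both days in the same direction were 23 of the higher (6.48% of those at day 1, 5.56% of those at day 5) and 106 of the lower ones (26.6% and 13.3%), and 2 genes, Comp and Hip1, were lower at day 1 and higher at day 5. Hip1, named after its values were seen, differed by -0.73 ± 0.24 at day 1 (adjusted p = 0.047) and by 0.71 ± 0.24 at day 5 (0.042). Without those libraries 203 genes were higher on both days, 530 were lower on both and 21 were called in opposite directions. Slfn4 had a region difference of 0.01 ± 0.54 at day 5 (0.01 ± 0.59 without those libraries), Adm of -0.05 ± 0.36 (0.36 ± 0.35) and Hsp90aa1 of -0.04 ± 0.25 (0.00 ± 0.27). The respiratory chain list had 28 of 30 members lower at day 5, with a median of -1.08, and 30 with a median of -1.49 without them. The test of day 1 against day 5 called 1 gene (0.0129%), the matrix protein Comp, at 3.08 to 3.38 in infarct and 3.91 to 5.04 in noninfarct arrays at day 1. The region difference of Comp was -1.14 ± 0.28 at day 1 and 1.08 ± 0.28 at day 5, a change of -2.22 (limma adjusted p = 0.033), or -2.06 (0.0014) without those libraries. At day 1 the call of Comp ended without noninfarct replicate 1 (adjusted p = 0.074), without both arrays numbered 3 and with the offset of 32, where it differed by -0.36 (0.16). Without those libraries 864 genes were called in the test of the days, and with the replicate block 30.

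**Figure D5:**
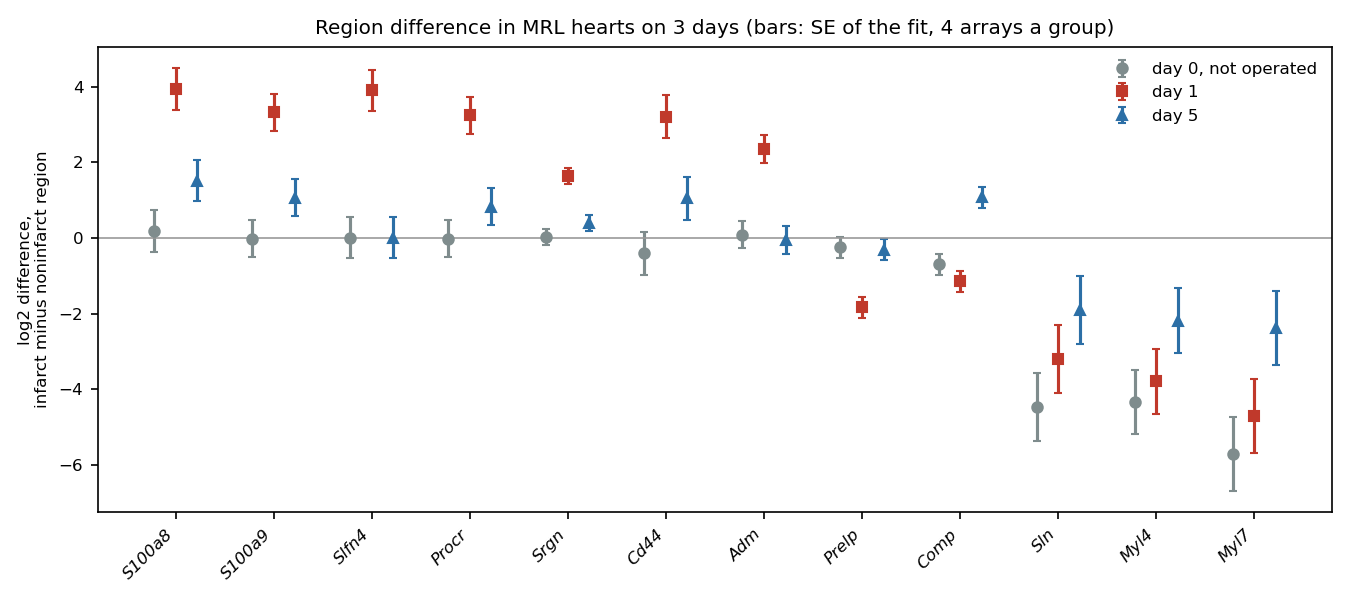
Log2 difference between the infarct and noninfarct regions of MRL hearts (vertical axis) at day 0, day 1 and day 5 for 12 genes, with bars of 1 SE of the fit (n = 4 and 4, with the apart MRL library of day 5 included). The atrial genes Myl7, Myl4 and Sln lie below 0 on each day, S100a8, S100a9, Slfn4, Procr and Srgn are highest at day 1, and Comp turns from -1.14 at day 1 to 1.08 at day 5. At day 5 the atrial genes are shown at -2.37, -2.18 and -1.89. Without both day 5 libraries that stood apart they were at -3.82, -3.66 and -2.94.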

How the data were processed

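Total RNA of 46 mouse heart samples was measured on Affymetrix MOE430A arrays. The authors deposited 1 linear intensity for each probe set and array, made with GCRMA per the submitters' processing notes (version not given in the sources used here). Array medians of log2 intensity ran from 4.22 to 4.48 and the smallest value was 1.03, so log2 was taken with no offset. For arrays, precision is limited by their number.

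Groups came from the sample titles. A linear model with 12 group means was fitted to all 46 arrays (lmFit and eBayes of limma, version 3.58.1, under R 4.3.3), which leaves 34 residual degrees of freedom, and p-values were adjusted by Benjamini and Hochberg's method for all 13138 probe sets that passed the filter. Of the probe sets, 20380 carried 1 symbol, 691 several and 1555 none, and 20351 were matched to RefSeq by Entrez ID. Where other probe sets of a named gene were tested (64 for 43 genes), 3 had the opposite sign.

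The labels do not say that numbers mark hearts. In the data, same-numbered infarct and noninfarct arrays of MRL day 1 had correlated deviations (r = 0.48, 0.34, 0.56 and 0.40). Each was higher than with any other number, so a replicate block was tried. Other groups varied. At MRL day 0 numbers 3 and 4 matched their own number best (r = 0.55 and 0.44), but numbers 1 and 2 did not (0.07 and 0.17). At MRL day 5 numbers 2 and 3 did (0.47 and 0.34), but numbers 1 and 4 did not (0.08 and -0.02). At C57 day 1 no number did, at C57 day 5 numbers 1 and 3 did, and at C57 day 0 every number did.

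Members and the 43 gene lists were chosen with earlier results of these data known. Genes were named by rule: the 15 largest called differences in each direction without overlap, up to 6 called members of each list, index genes, and up to 6 called in each direction for each difference of differences. Alternatives were the filter, an offset of 32, quantile normalization, median centring, the arrays in the fit, the replicate block, eBayes with trend, another probe set and single arrays left out. Leaving out both arrays numbered 3 was added after seeing the data. The fit was tested on simulated data. Promoter letters are from RefSeq (GRCm38.p6). No list test was run.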

Additional observations from a re-analysis of the deposited data

Results flagged for a closer look

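In 20 of 248 groups of 4 arrays (1 named gene in 1 region each), 1 array stood far from the other 3 by Dixon's criterion, which chance meets in about 1 of 20 groups. That rate holds for values of a normal distribution. These genes were picked on the same arrays and some lie near background, so 20 of 248 cannot be set against it. Of these, 12 were arrays numbered 3. Noninfarct replicate 3 was high in Ch25h (4.76), Clec4d (4.88), Cxcl1 (9.61), Fosl1 (3.78), Il1r2 (4.80), Il6 (6.95), Myc (7.50), Plaur (6.35), Selp (5.29) and Slfn4 (2.71). Infarct replicate 3 was high in Nfkbiz, an inducible regulator of NF-kB (8.87), and low in Nppa (12.37). Noninfarct replicate 4 was high in Arg1 (5.29) and Ppbp (3.04), and infarct replicate 4 in Il11 (7.07). Infarct replicate 1 was low in Cd300lf (4.95) and high in Mki67 (5.61), Myh7, the slow myosin heavy chain (11.43), and Olfml2b (7.02), and noninfarct replicate 1 was high in Dnajc28 (6.74). What sets these arrays apart was not tested.

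The region difference at day 1 differed from that at day 0 by the limma interaction test in Slfn4 (3.89), S100a8 (3.75), S100a9 (3.34), Procr (3.26), Srgn (1.61) and Slc22a23 (-1.34), and from that at day 5 in Comp (-2.22).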

How the results depend on the processing

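Of 109 called genes named by rule, 20 kept their call in every one of 21 alternative settings that gave them a value (Fpr2 had no value under the stricter filter). The count of called genes at MRL day 1 (753) was 206 on its 8 arrays alone, 1292 on these with a replicate block, 1376 on days 0 and 1, 1333 without the day 5 libraries that stood apart, 410 without both arrays numbered 3, and 209 to 1211 with single arrays left out. The test of MRL against C57 (0) gave 3 with the replicate block on all 46 arrays, 1 on days 0 and 1, 1 without the apart libraries, 3 without both arrays numbered 3 and 0 to 3 with single arrays left out. On its arrays alone it gave 0, with or without the block. Day 1 against day 0 (6) gave 2 with no filter, 10 after quantile normalization, 211 on its arrays alone, 1047 on these with the block, 42 with the block on all arrays, 26 on days 0 and 1, 18 without the apart libraries, 13 without both arrays numbered 3 and 0 to 129 with single arrays left out. Day 1 against day 5 (1) gave 0 with no filter, 2 with the stricter filter, 3 with the offset, 2 after quantile normalization and 2 after centring. It gave 0 on its arrays alone, 5 on these with the block, 30 with the block on all arrays, 864 without the apart libraries, 4 without both arrays numbered 3 and 0 to 66 with single arrays left out. C57 day 1 (586) gave 74 on its arrays alone, 31 with the replicate block, 1173 on days 0 and 1 and 1149 without the apart libraries. Its same-numbered arrays did not deviate together (r = 0.1, -0.46, 0.15 and -0.27), so the data show no pairing behind that block. MRL day 0 (4) gave 2 with the stricter filter, 2 with the offset and 2 after centring, and MRL day 5 (1210) gave 7 on its arrays alone, 2 with the replicate block and 2909 without the apart libraries. At MRL day 5 infarct replicates 1 and 4 matched another number better than their own. At MRL day 0 this held for numbers 1 and 2. The pairing is therefore in doubt behind the blocked fits that take in day 0 or day 5 arrays alone with those of day 1.

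Of the genes not called, 7 turned sign in some setting: with single arrays left out Acta2 ran from -0.17 to 0.25, Ankrd1 from -0.01 to 0.35, Atp2a2 from -0.09 to 0.04 (also 0.01 and 0.02), Col1a1 from -0.09 to 0.62, Myh7 from -0.76 to 0.18 and Nppa from -0.04 to 0.76, and Myh6 was at 0.09 after quantile normalization. The replicate block on the 8 arrays ended the calls of Dkk3, Dpt, Maff, Myh11, Ogn and Trib3 (adjusted p from 0.051 to 0.11) and made calls of Cdkn1a, Timp1 and the ribosomal gene Rpl3l (0.015). The apart libraries enter the spread shared by all groups and, for day 5, the group mean, and the causes of the other changes were not tested.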
